A study of Mus musculus with 4 samples.

Results

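The tubulin isotypes described here are 10 genes, Tuba1a, Tuba1b, Tuba1c, Tuba4a and Tuba8 of the alpha family and Tubb2a, Tubb2b, Tubb3, Tubb4b and Tubb6 of the beta family, measured in ID8G and GO2 mouse ovarian cancer cells. They were selected on their measured values in this same contrast, around a low Tuba8 signal in GO2 cells, and a probe was assigned to a gene by its RefSeq accession. The 10 genes held 15 of the 56605 probes on the array, out of 22911 gene symbols with a probe, and all 15 probes passed the filter on dim signal. Because the choice of genes used this contrast, their values are a description with no test.

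ID8 is a mouse line that arose from ovarian surface epithelial cells. ID8G cells are ID8 cells that received a GFP retrovirus and were sorted for GFP. GO2 cells came from ID8G cells by repeated passage through the peritoneal cavity of C57BL/6J mice, with CD45-GFP+ cells sorted from omental tumors each time and cultured in between, so that GO2 is a single selected line and carries the same GFP retrovirus as its parent. The methods give a medium with low serum, insulin, transferrin and selenite for ID8 cells and name no separate medium for GO2 cells. Total RNA of each line was hybridized to 2 Agilent one-color (Cy3) arrays, 4 arrays in all, and nothing in the labels says that the arrays of a line came from separate cultures, so the spread between them may be technical.

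Microtubules are hollow polymers of alpha- and beta-tubulin dimers. Mammals have several genes for each family, and the proteins differ mainly in the acidic tail at the C terminus, where most modifications of tubulin and many contacts with motors and associated proteins lie. Tuba1a, Tuba1b and Tuba1c are closely related genes in a cluster, and Tuba1b is abundant in dividing cells. Tubb3 is best known as a marker of neurons, Tubb2a and Tubb2b are also abundant in brain, and Tubb4b and Tubb6 are expressed in many cell types. Tuba8 is the most divergent of the alpha isotypes in this list and is known from muscle, testis and brain.

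Values are the log2 background-corrected intensity of a probe minus the 75th percentile of its array, so that 0 is the signal of the 75th percentile probe, and each difference is GO2 minus ID8G on this log2 scale. Brightness differs between probes for reasons of probe design, so that levels are compared between arrays and not read as amounts between genes. Only the list of probes nearest to Tuba8 and the marker sums use levels across genes, and both depend on probe brightness. The 75th percentile lay at an intensity of 675 and 668 for ID8G and 635 and 627 for GO2, between 27502 and 28841 probes per array were well above background, and 0 spots were saturated. Arrays of the same line correlated at 0.997 over all probes tested, and their median absolute difference was 0.077 in ID8G and 0.078 in GO2, against 0.215 between the replicate 1 arrays of the lines.

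The alpha-tubulin Tuba8 had the largest difference of the 10 genes. Its probe, A_66_P119518, read 0.25 and 0.40 in ID8G, and in GO2 it read −3.60 and −3.42. Both GO2 arrays lay far below both ID8G arrays, and the arrays of each line lay close together (SD 0.10 in ID8G and 0.13 in GO2, n = 2 each). The difference was −3.84, a 14.3-fold lower signal in GO2, and −2.70 after normexp background correction. In units of intensity, the ID8G arrays read 804 and 880 and the GO2 arrays 52.2 and 58.6. The probe was well above background on both ID8G arrays and on 1 of the 2 GO2 arrays, replicate 2, so that a low signal remained in GO2 and the gene cannot be called absent there. With signal required on all 4 arrays it was not tested. Among the 13215 genes tested, each taken by its brightest tested probe, Tuba8 ranked 22 from the lowest difference. Tuba8 has 1 probe on the array, so no other probe bears on the value, and in bulk RNA fewer cells with the transcript and less transcript per cell cannot be told apart.

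Tubb3, the neuronal beta-tubulin, lay on the other side. Probe A_51_P381381 read 0.22 and 0.20 in ID8G, and in GO2 it read 1.35 and 1.39. The arrays of each line differed by far less than the lines did (SD 0.01 in ID8G and 0.03 in GO2, n = 2 each). The difference was 1.16, a 2.23-fold higher signal in GO2, with intensities of 784 and 770 in ID8G and of 1619 and 1639 in GO2, and 0.95 with arrays scaled to the spike-ins. Tubb3 ranked 712 from the highest difference among the genes tested.

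Tubb2b, a beta-tubulin of developing brain, read 4.90 and 4.89 in ID8G, and in GO2 it read 4.13 and 4.07. Both GO2 arrays were below both ID8G arrays, by 0.80 on average (SD 0.01 in ID8G and 0.04 in GO2, n = 2 each), a 1.74-fold lower signal. Its neighbor in the genome and closest relative in this list, Tubb2a, had levels of 5.07 and 5.09 in ID8G and of 5.36 and 5.12 in GO2. The Tubb2a difference of 0.16 was smaller than the spread between the GO2 arrays (SD 0.17, n = 2). Their probes thus gave differences of opposite sign, −0.80 and 0.16, although scaling to the spike-ins put both below 0.

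The cluster of Tuba1 genes differed little between the lines. Tuba1a, the alpha-tubulin of young neurons, had levels of 7.34 and 7.31 in ID8G and of 7.38 and 7.31 in GO2, and it is the 1 gene of the 10 whose arrays overlapped between the lines, with a difference of 0.02. For Tuba1b, the brighter probe had levels of 9.31 and 9.34 in ID8G and of 9.30 and 9.27 in GO2, a difference of −0.04, and the other probe gave −0.05. Both probes thus differed by less than 0.1 between the lines, with the GO2 arrays on the lower side.

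Tuba1c was the best measured of the 10 genes, with 3 probes, 1 of them printed in 10 spots on each array. This probe had levels of 7.55 and 7.61 in ID8G and of 7.41 and 7.42 in GO2, a difference of −0.17. The SD over its 10 spots was 0.040 to 0.047 on an array, so that the difference exceeded the spread between spots, but spots are no replicates of the cells. The other Tuba1c probes gave differences of −0.18 and −0.12, and for all 3 probes the GO2 values lay below the ID8G values.

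The remaining genes had differences under 0.3 by their brightest probe. Tubb4b, a widely expressed beta-tubulin, had levels of 6.44 and 6.50 in ID8G and of 6.68 and 6.60 in GO2, a difference of 0.17, and its other probe gave 0.11. Tubb6, a beta-tubulin of many tissues outside the brain, had levels of 6.51 and 6.54 in ID8G and of 6.30 and 6.24 in GO2, a difference of −0.26. Both genes had GO2 values entirely on one side of the ID8G values, Tubb6 below and Tubb4b above, except that scaling to the spike-ins put Tubb4b at −0.04.

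Tuba4a, an alpha-tubulin encoded without the C-terminal tyrosine of most alpha isotypes, was the gene whose probes disagreed most in size. The brighter probe, A_52_P409498, had levels of 0.38 and 0.26 in ID8G and of 0.64 and 0.56 in GO2, a difference of 0.28. The dimmer probe, A_65_P05809, had levels of −2.66 and −2.73 in ID8G and of −1.94 and −2.03 in GO2, a difference of 0.71. Both probes were higher on both GO2 arrays. Tubulin genes are near-identical over much of their coding sequence, and whether a probe also binds the transcript of a related gene was not tested, because probe sequences were not used here.

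**Figure D1:**
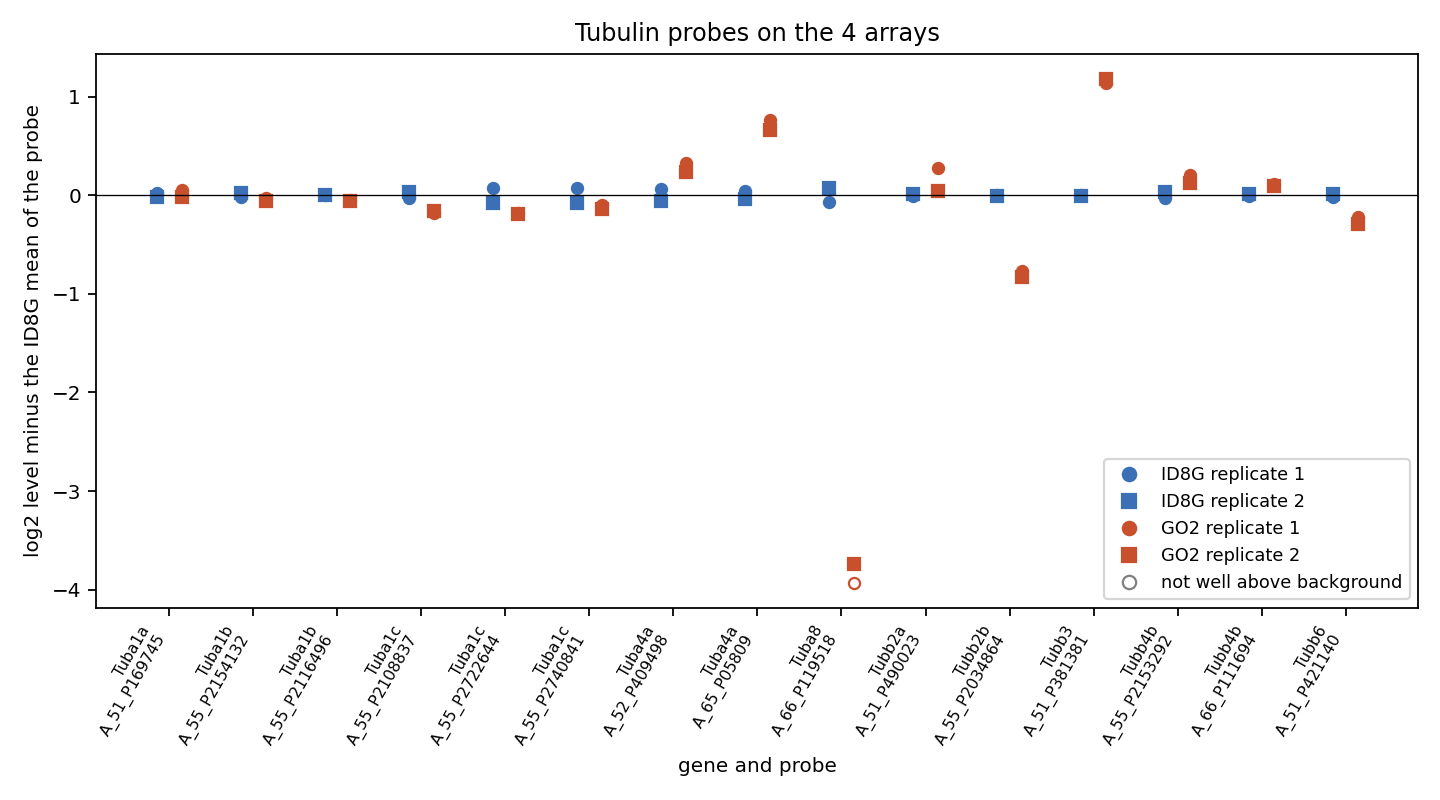
The log2 level of each of the 15 tubulin probes on each of the 4 arrays, after subtraction of the probe's ID8G mean, with circles for replicate 1 and squares for replicate 2 of ID8G (blue) and GO2 (red) and an open symbol where the probe was not well above background. The GO2 arrays of Tuba8 lie near −3.84, those of Tubb3 near 1.16 and those of Tubb2b near −0.80, while the GO2 means of the other probes lie within 0.71 of 0.

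Across the 10 genes, the brightest probes gave 1 gene higher in GO2 and 1 lower at the threshold used for all genes, a Benjamini-Hochberg adjusted p below 0.05 in limma and a change of at least 2-fold. These were Tubb3, which was under 2-fold and not called with spike-in scaling, and Tuba8. Of all 13215 genes tested, 5.98% were called higher and 3.94% lower. Both GO2 arrays lay above both ID8G arrays for 4 of the 10 genes, as they did for 39.3% of all genes tested, and below them for 5, as for 39.1% of all genes. The difference was under 0.3 in size for 7 of the 10 genes and for 63.4% of all genes. The median difference was −0.01 over the 10 genes and 0.00 over all genes tested. The genes were chosen on these values, so nothing is read from the counts.

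**Figure D2:**
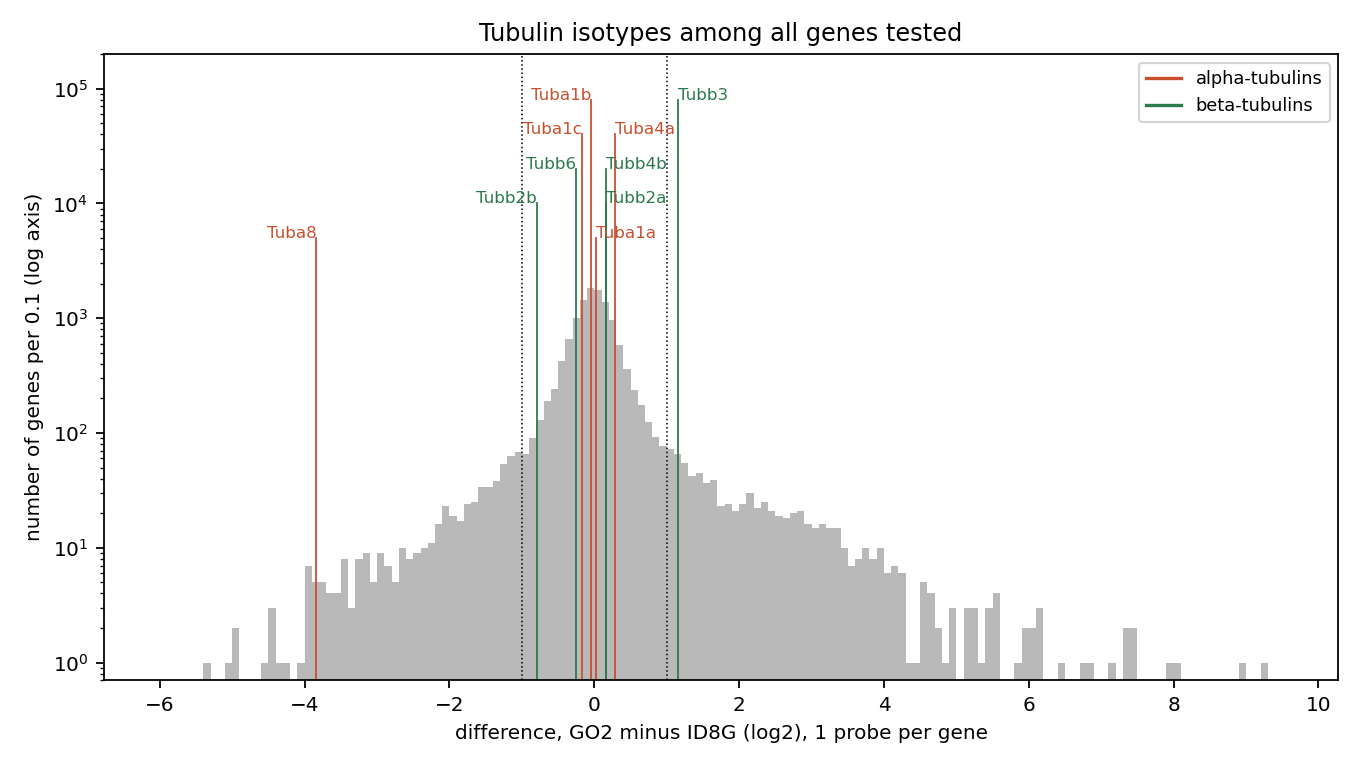
The number of genes (log axis) by log2 difference, GO2 minus ID8G, over all 13215 genes tested in steps of 0.1, with the 5 alpha-tubulins (red) and the 5 beta-tubulins (green) marked at their own difference and dotted lines at 2-fold. Tuba8 lies in the far lower tail at −3.84, Tubb3 just past the upper line at 1.16, and the other 8 genes lie between the lines.

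The sequences before the start of the genes were read from the RefSeq promoter table for GRCm38.p6, which holds 8 of the 10 genes; Tubb2b and Tubb6 are not in it. The array was designed on an earlier mouse build, so these coordinates belong to the sequence only. The 250 bases before the start were searched on both strands for 3 well-known promoter motifs, the TATA motif (TATAA), the CCAAT motif and the GC motif (GGGCGG). Over the 32851 sequences of the table, 22.8% held TATAA, 33.8% CCAAT and 32.7% GGGCGG. Shown are Tuba8 and Tubb3, the genes that differed most between the lines, and Tuba1b, with a difference of −0.04, with each motif match in capitals on the gene's strand, 5′ to 3′.
Tuba8 (chr6:121210484-121210733, plus strand): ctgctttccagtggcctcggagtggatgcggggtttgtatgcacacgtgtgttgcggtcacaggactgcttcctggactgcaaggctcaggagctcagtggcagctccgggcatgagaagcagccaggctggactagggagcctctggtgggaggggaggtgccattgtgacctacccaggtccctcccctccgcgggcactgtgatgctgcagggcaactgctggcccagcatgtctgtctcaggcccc
Tubb3 (chr8:123411303-123411552, plus strand): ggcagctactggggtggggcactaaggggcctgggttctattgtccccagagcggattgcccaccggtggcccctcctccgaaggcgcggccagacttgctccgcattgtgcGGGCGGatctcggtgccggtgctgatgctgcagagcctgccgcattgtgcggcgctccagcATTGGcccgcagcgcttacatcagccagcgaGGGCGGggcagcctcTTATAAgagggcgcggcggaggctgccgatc
Tuba1b (chr15:98934391-98934640, minus strand): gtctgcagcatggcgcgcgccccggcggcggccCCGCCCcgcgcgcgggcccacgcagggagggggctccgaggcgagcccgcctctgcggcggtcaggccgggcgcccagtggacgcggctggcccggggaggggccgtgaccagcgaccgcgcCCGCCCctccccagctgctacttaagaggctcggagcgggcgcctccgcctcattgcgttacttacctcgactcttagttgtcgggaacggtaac

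The Tuba8 sequence held 0 matches to any of the 3 motifs. Of the 8 genes in the table it was alone in this, and Tuba1c, with 1 CCAAT and no other match, came nearest. Each motif was missing from most sequences of the whole table, and the share that lacked all 3 was not counted. The Tubb3 sequence held TATAA on both strands at overlapping positions, 1 CCAAT match, 77 bases before the start, and 2 GGGCGG matches. The Tuba1b sequence held 2 GGGCGG matches and no TATAA or CCAAT. In CpG dinucleotides, Tuba8 had 7, Tubb3 21 and Tuba1b 35, against a median of 6 over the table (quartiles 2 and 16). Over the 8 genes the number of CpG ran from 4 in Tuba1c to 35 in Tuba1b. A match describes letters only, and no binding or methylation was measured in these cells.

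Around Tuba8 in gene order, the genes on both sides changed far less than Tuba8 did. On one side, Mical3, which encodes a monooxygenase of the MICAL family, differed by −0.58 (SE 0.07, adjusted p = 0.0078 in limma) and Pex26, which encodes a peroxisome assembly factor, by −0.39 (SE 0.05, adjusted p = 0.0105 in limma). On the other side, Iqsec3 differed by 0.00 (SE 0.06, adjusted p = 0.971 in limma) and M6pr, which encodes the cation-dependent mannose 6-phosphate receptor, by −0.16 (SE 0.07, adjusted p = 0.127 in limma). Mical3 and Pex26 thus passed the p threshold below 2-fold, and none of the 4 genes was called. The 4 neighbors of Tubb3 had differences between −0.23 and 0.11, and none was called.

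Called neighbors, named here after their values were seen, occurred beside other tubulin genes. By the Tuba1 cluster, Prph, which encodes the neuronal filament protein peripherin, fell by 2.03 (SE 0.13, adjusted p = 0.0015 in limma) and Dhh, which encodes desert hedgehog, fell by 1.91 (SE 0.08, adjusted p = 0.00053 in limma). Beside Tubb6, Mppe1 fell by 1.68 and Prelid3a fell by 1.18 (adjusted p = 0.0005 and 0.0019 in limma). The tubulin genes next to them differed by 0.02, −0.04, −0.17 and −0.26.

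**Figure D3:**
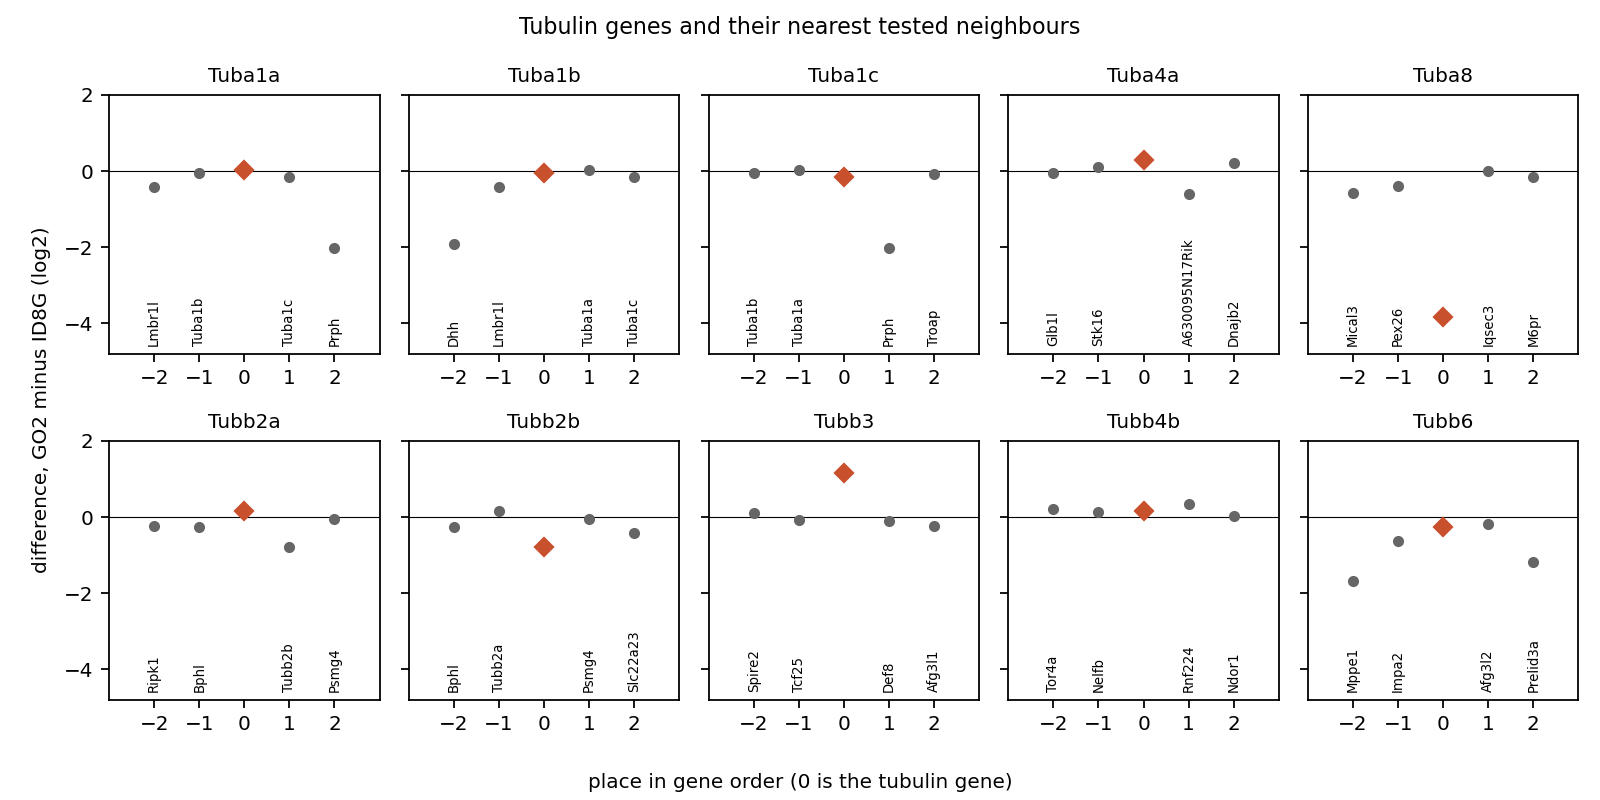
The log2 difference, GO2 minus ID8G, of each of the 10 tubulin genes (red diamond, place 0) and of the 2 nearest tested genes on each side in RefSeq gene order (gray points), 1 panel per tubulin gene. Tuba8 lies at −3.84 with neighbors between −0.58 and 0.00, and Tubb3 at 1.16 with neighbors between −0.23 and 0.11.

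The 5 probes nearest to Tuba8 by Euclidean distance of their levels over the 4 arrays belonged to Dll1, a Notch ligand (distance 0.356), St8sia4, a polysialyltransferase (0.567), Ccm2l, a relative of the CCM2 adaptor (0.612), Gprc5c, an orphan receptor (0.643), and Camk2b, a calcium/calmodulin kinase subunit (0.657). Their differences ran from −3.90 for Ccm2l to −3.30 for St8sia4. Dll1 and Gprc5c were, like Tuba8, well above background on 1 of the 2 GO2 arrays. With 4 arrays in 2 groups, any gene with the same pair of levels is near, so the list describes a shape and no shared control.

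The genes around tubulin were taken as lists of 196 genes in all, of which 195 had a probe and 164 were tested. Of these, 9 were called higher in GO2 (5.49%, against 5.98% of all genes tested) and 0 lower in limma. At an adjusted p below 0.05 with any size of change, 30 were higher (18.3%) and 18 lower (11.0%), against 21.0% and 20.0% of all genes tested. An unadjusted p below 0.05 was found for 74 (45.1%), against 53.1% of all genes. The median difference was 0.02. These genes were not used in choosing the tubulin isotypes, but the lists were written with earlier results of these arrays known.

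Among the 10 other tubulins, 7 were tested and 1 was called. Tubg2, which encodes a gamma-tubulin, rose by 1.28 (SE 0.13, adjusted p = 0.0049 in limma). Its levels were −2.60 and −2.94 in ID8G and −1.46 and −1.52 in GO2, so that the lines did not overlap. The other 6 tested tubulins lay between −0.21 and 0.20.

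In the lists for tubulin folding and for nucleation, 0 genes were called. Of the 20 genes for tubulin folding (prefoldin, the CCT chaperonin and the tubulin cofactors), all 20 were tested, 7 had an unadjusted p below 0.05 and the differences ran from −0.26 to 0.19. The largest was in Tbce, an alpha-tubulin cofactor, at −0.26 (SE 0.06, adjusted p = 0.039 in limma). Of the 19 genes for nucleation, all were tested, 7 had an unadjusted p below 0.05, and 2 were higher and 4 lower at the adjusted p threshold alone. The largest difference was in Haus8, an augmin subunit, at −0.46 (SE 0.05, adjusted p = 0.0061 in limma).

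Of the 24 genes for modification of tubulin, 16 were tested and 0 called, 8 had an unadjusted p below 0.05, and 4 were higher and 2 lower by adjusted p alone. Agbl3, which encodes a carboxypeptidase that trims glutamates from tubulin tails, came nearest to a call at −0.93 (SE 0.05, adjusted p = 0.0011 in limma), with levels of 0.58 and 0.60 in ID8G and of −0.32 and −0.35 in GO2. Of the 12 genes for autoregulation of tubulin mRNA and the deadenylase that serves it, 0 were called in limma, and the 3 with an unadjusted p below 0.05 were also lower by adjusted p alone, led by Cnot7, a deadenylase subunit, at −0.55 (SE 0.07, adjusted p = 0.0083 in limma).

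Microtubule-binding proteins were the list with the most calls, 7 higher and 0 lower of 32 tested (21.9% higher, against 5.98% of all genes). By adjusted p alone 15 were higher (46.9%, against 21.0% of all genes) and 0 lower, and the median difference was 0.26. The called genes Map2, Clip3, Map7 and Mapt passed the filter on dim signal through GO2 alone, where they are high, so a lower call was hardly open to them. With signal required on all 4 arrays, 4 microtubule genes of all lists were called higher in place of 9. Over all genes, 449 of 12308 were then called higher, in place of 790 of 13215. Nothing is read from the share of this list. Map2, a dendritic microtubule-associated protein, was not well above background on either ID8G array by its brighter tested probe. This probe had levels of −0.08 and −0.02 in GO2, at least 12.4-fold higher (adjusted p = 0.00019 in limma). After normexp its difference was 3.41, below the log2 bound of 3.63, and the other tested probe, also called, gave 2.51. Clip3, a protein of the Golgi and endosomes with microtubule-binding domains, was likewise not well above background on either ID8G array. It was at −0.88 and −0.85 in GO2, at least 7.03-fold higher (adjusted p = 0.00022 in limma). Its difference after normexp was 2.64, below the log2 bound of 2.81. Map7, which recruits kinesin-1 to microtubules, had levels of −3.70 and −3.45 in ID8G, well above background on 1 of 2 arrays, and of 1.09 on average in GO2 (SD 0.01, n = 2), a rise of 4.67 (SE 0.10, adjusted p = 0.00021 in limma). Its other tested probe gave 2.68, and normexp gave 3.41. A bound takes, on each dim array, the lowest signal among probes well above background there.

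The other called genes of this list, which the rule for named genes leaves out, were Dclk1 (10.6-fold higher), Map1a (3.09-fold), Dclk2 (2.83-fold) and Mapt, which encodes tau and was at least 2.61-fold higher. Dclk1 and Dclk2 encode doublecortin-like kinases. The 3 tested probes of Dclk1 gave 1.06 to 3.41, and 2 of them were called.

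Of 12 tested genes for destabilizing and severing, 0 were called, 3 had an unadjusted p below 0.05, and the median difference was 0.04. Of 46 tested motor genes, 1 was called by its brightest probe. A dimmer probe of Kif21b, a kinesin noted here after its values were seen, was called lower at −1.65, while its brightest probe gave 0.11. Kif26b, a kinesin-like protein, was the called motor gene. It was not well above background on either ID8G array, so it passed the filter on dim signal through GO2 alone. Its levels in GO2 were −0.82 and −0.79, at least 7.32-fold higher (adjusted p = 0.0011 in limma). The difference after normexp was 2.26, below the log2 bound of 2.87.

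**Figure D4:**
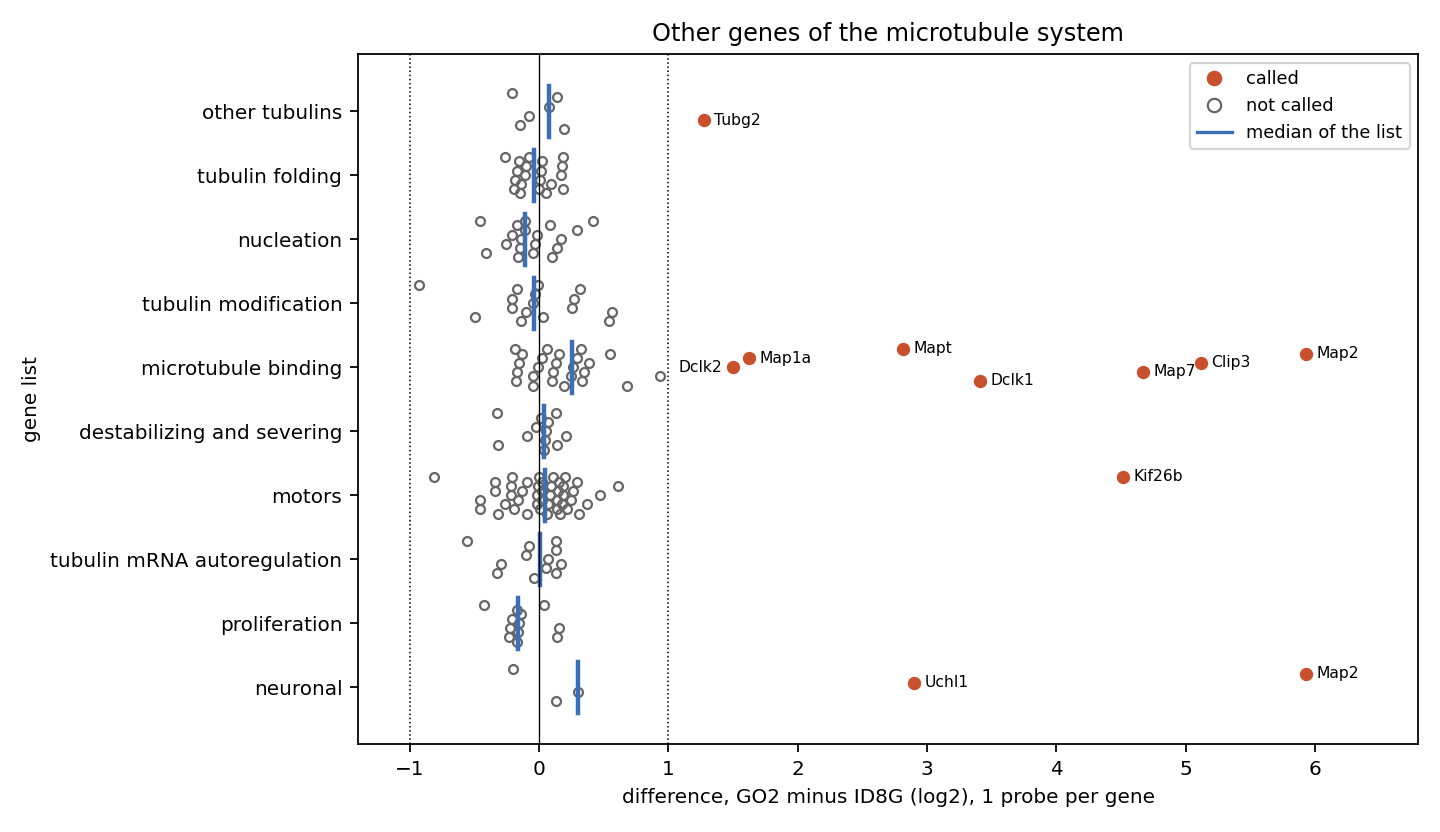
The log2 difference, GO2 minus ID8G, of each tested gene (1 point per gene, filled where called) in 8 lists of microtubule genes and in the proliferation and neuronal lists, with the median of each list as a blue bar and dotted lines at 2-fold. The 7 called genes for microtubule binding lie past the upper line, up to 5.93, and Map2, Clip3, Mapt and Kif26b are drawn at their measured difference although their ID8G signal was not well above background.

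Lists for proliferation and for neurons were set beside the tubulins because isotypes are known from dividing cells and from neurons. All 12 proliferation genes were tested and 0 were called in limma. Their median was −0.16, 8 had an unadjusted p below 0.05, and the largest difference was in Cdk1, a kinase of mitotic entry, at −0.42 (SE 0.06, adjusted p = 0.0131 in limma). Of 5 tested neuronal genes, Uchl1, a ubiquitin hydrolase of neurons, rose by 2.90 (SE 0.05, adjusted p = 0.00019 in limma), and Map2, already given above, was the other call. The other 3 tested genes, Snap25, Syp and Elavl4, had differences of −0.20, 0.13 and 0.30 and were not called. The remaining 7 of the 12 neuronal genes (Rbfox3, Syt1, Nefl, Nefm, Elavl3, Gap43 and Dcx) were not well above background on any array and were not tested. Tubb3 was 2.23-fold higher in the same arrays, and the part of these genes in its value was not tested.

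Markers of the cells that these lines and tumors could hold were read beside the tubulins. A sum of signal over markers follows its brightest probes most, so it describes signal only and gives no share of cells. The 9 markers of ovarian surface epithelium and mesothelium with a probe had a summed signal, in multiples of the 75th percentile, of 671 and 664 in ID8G and of 381 and 385 in GO2. Of the 8 tested, Upk3b was called higher and Krt19 lower, and Krt7 was not well above background on any array. At an adjusted p below 0.05 with any size of change, 1 was higher (12.5%) and 4 were lower (50%) in limma. Of all genes tested, 21.0% were higher and 20.0% lower by this measure. The median difference of the 8 markers was −0.32. The 9 macrophage markers summed to 22.4 and 25.1 in ID8G and to 21.7 and 21.8 in GO2. Of 4 tested, 0 were called and 1 was lower by adjusted p alone, and the lowest difference was −0.69. Ptprc, which encodes the CD45 used in the sort, was not well above background on any array, nor were Adgre1, Lyz2, Mrc1 and Tyrobp. The 8 fibroblast markers summed to 71.3 and 68.5 in ID8G and to 150.0 and 150.4 in GO2, with 4 of 5 tested called higher (Pdgfra, Col1a1, Col1a2 and Col3a1). The fifth, Dcn, was lower by adjusted p alone (−0.63, adjusted p = 0.0031 in limma), and Fap, Lum and Thy1 were not well above background on any array.

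For the tissues in which Tuba8 is known, the 10 muscle markers summed to 12.3 and 11.6 in ID8G and to 3.14 and 3.09 in GO2. Of 5 tested, Acta1 and Actc1 were called higher and Tnnt2 and Tnni3 lower, and the fifth was lower by adjusted p alone. Ckm, Des, Myod1 and Myog were not well above background on any array. The 8 markers of testis germ cells summed to 0.660 and 0.651 in ID8G and to 0.340 and 0.482 in GO2. Of 2 tested, Ddx4 was called lower, at least 4.94-fold, and the other was higher by adjusted p alone, with a difference of 0.43. Acrv1, Dazl, Sycp3, Tnp1 and Zpbp were not well above background on any array. The 6 endothelial markers had 1 gene tested and 0 called, and of 6 adipocyte markers 2 were tested and Fabp4 was called lower. The part of these markers in the Tuba8 and Tubb3 values was not tested.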

How the data were processed

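RNA of ID8G and GO2 cells was measured on 4 Agilent one-color arrays, 2 per line. The deposited scanner files hold background-corrected intensity per spot (Feature Extraction 11.5.1.1), not normalized between arrays, with flags for outliers, saturation and signal. The deposited table holds log2 values; set against the scanner values, they were scaled by the 75th percentile of an array and then centered per probe (column medians 0.104, −0.048, 0.038 and −0.049). It served as 1 alternative, and the number of per-sample columns not used was 0. Here, spots of a probe were averaged without outlier spots as log2 intensity, less the array's 75th percentile over non-control probes.

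Probes whose signal was well above background on both arrays of either line (28368 probes) were fitted with limma 3.58.1 in R 4.3.3, with line as the only term. The Benjamini-Hochberg adjustment ran over all 28368 probes, and each of 13215 genes was then taken by its tested probe of highest mean level. A call needed an adjusted p below 0.05 and at least a 2-fold change. The fit was tested on simulated data, and the outcome is not given here. By permutation, 2 arrays against 2 cannot give a two-sided exact p under 0.333, and the number of arrays limits precision.

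Symbols came from RefSeq accessions (GRCm38.p6), which matched 32994 probes (58.3%). Named are all 10 isotypes, at most 3 called genes per list by size (else the gene with the largest difference), 2 tested genes on each side of Tuba8 and the 5 probes nearest to it. For 1 list the gene so chosen is not reported here. Isotypes, lists and tests were chosen with earlier results of these data known. Alternatives were other background corrections (normexp with offset 50, on median pixels), scalings and filters, single arrays left out, the replicate number as a block and the methods' t-test. Figures used matplotlib 3.10.9 in python 3.11.15.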

Additional observations from a re-analysis of the deposited data

How the results depend on the processing

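The Tuba8 difference of −3.84 kept its direction under every alternative that could be run. It was −2.70 after normexp background correction and −4.04 when arrays were scaled to the spike-ins, and it ran from −3.93 to −3.74 with 1 array left out. Tuba8 was not tested where all 4 arrays had to be above background, which left 0 isotypes called lower and 4 microtubule genes called higher in place of 9. Spike-in scaling moved the median of all probes from −0.02 to −0.23. It left 0 isotypes called higher (Tubb3 at 0.95) and 2 called lower (Tuba8, and Tubb2b just past 2-fold), gave 2 microtubule genes called lower, and turned the small differences of Tuba1a, Tubb2a and Tubb4b below 0. It also moved all calls from 790 higher and 521 lower to 675 and 714. Without a filter on dim probes, 2 microtubule genes were called lower. After Benjamini-Hochberg adjustment, the methods' t-test called 0 isotypes higher, 0 lower and 0 microtubule genes, with 4 isotypes and 34 microtubule genes at an unadjusted p below 0.05. Of all 13206 genes in this setting, it called 0 higher and 3 lower, so the lost calls were not particular to the isotypes. With 1 array left out, 8 to 9 microtubule genes were called higher and the isotypes gave 1 higher and 1 lower; the spread then comes from the other line alone, and the lone array is assumed to vary like it.

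With the replicate number as a block (replicate block), the Tuba8 difference was −3.84 and 9 microtubule genes were called higher; over all genes 779 were higher and 517 lower. Deviations of same-numbered arrays correlated at 0.027, so no effect shared by same-numbered arrays was seen. The labels do not say whether the numbers pair the arrays. All 4 arrays lie on 1 slide, so the slide as a block was not run. Of the other named genes of the lists and the genes beside Tuba8, Tubg2 fell below the threshold after normexp (0.91). Under the t-test, which called 0 of all genes higher, 6 lost their call (Clip3, Kif26b, Map2, Map7, Tubg2 and Uchl1). Agbl3 gained a call under spike-in scaling (−1.13). A floor at the lowest signal above background, chosen after seeing the data, gave 676 genes higher and 459 lower and the same 9 microtubule genes.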
